A study of Mus musculus with 18 samples.

Results

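The 6 libraries of long-term haematopoietic stem cells (LT-HSCs) cultured for 48 h at pH 6.9 fall into sets by the sequencing index in their column names. Index 705 marks replicates 1, 3 and 5, and index 706 marks replicates 2, 4 and 6. These 6 of the 18 libraries of the series are defined by treatment and index in the labels and column names. Each library was made from 100 LT-HSCs sorted from the bone marrow of mice aged 8 to 12 weeks, and the series draws on 6 mice. They are named as B6.SJL in the growth protocol and as c57 B6 WT in the genotype field. The growth protocol names IMDM with 10% fetal bovine serum or medium set to pH 6.9 beforehand, and cytokines including SCF and GCSF, with 50 ng/ml given as their concentration, in 5% CO2 and 3% O2 at 37 °C. The other groups used below are cells cultured for 48 h at pH 7.4 (index 707, replicates 1, 3 and 5, and index 708, replicates 2, 4 and 6) and fresh cells at pH 7.4 that were not cultured (index 701, replicates 3 and 5, and index 702, replicates 2 and 6). Fresh replicate 1, with a total count of 6311, and fresh replicate 4, with 9408 genes detected, were left out. The labels name the same genotype for every group, with no deletion or transgene, and no reason for the odd and even replicates to have different indices.

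LT-HSCs are rare cells that can renew every blood lineage and that rest outside the cell cycle for most of the time. Resting LT-HSCs are known for low protein synthesis and active lysosomes, and cytokines in culture push them to build ribosomes, respire and divide. Polyamines are small cations made from ornithine, and spermidine supplies the hypusine residue that the translation factor eIF5A needs. A library index is a short tag that sorts reads after sequencing and has no biological function. Because the odd-numbered replicates carry index 705 and the even-numbered ones index 706, a difference between index 705 and index 706 cannot be told apart from one between these mice, cultures or library preparations.

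Total counts at pH 6.9 were 1689227, 7508120 and 1788519 in index 705 replicates 1, 5 and 3, against 1640817, 3156482 and 4734840 in index 706 replicates 2, 4 and 6. Replicate 3 had 8925 genes detected, and the other 5 libraries had 11225 to 12516. Its Spearman rho with the other pH 6.9 libraries was 0.704 to 0.755, across genes that share library and depth. A principal component with 66.8% of the variance separated it from the rest. The 8 neutrophil and promyelocyte markers summed to 1288 CPM (counts per 1000000) in replicate 3, mostly Ctsg at 629.7 and Ms4a3 at 376 CPM. They summed to 161 and 164 CPM in replicates 1 and 5 and to 48.9, 46.5 and 33.3 CPM in index 706. The 5 mast cell and basophil markers summed to 214 CPM in replicate 3, led by Cpa3 at 119.7 and Mcpt8 at 89.96 CPM. They summed to 0 and 17.7 CPM in replicates 1 and 5 and to 1.71, 23.2 and 9.07 CPM in index 706. S100a8, S100a9, Ngp, C1qa, Alas2, Car1, Ms4a2, Prss34, Cd3e, Cdh5 and Krt19 were at 0 in all 6 libraries. Results are therefore given without replicate 3, with the counts and the changed calls that it gives when added. CPM values are listed for index 705 in the order of replicates 1, 5 and 3, and for index 706 in the order of 2, 4 and 6.

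Of 11226 genes tested without replicate 3, edgeR's quasi-likelihood test called 1494 (13.3%) between index 705 and index 706 at an adjusted p under 0.05. Of these, 745 (6.64%) were higher in index 705 and 749 (6.67%) were lower in index 705, and 1023 changed at least 2-fold. Over all genes tested the median log2 fold change was -0.09. With replicate 3 added, 1120 of 11169 genes (10.0%) were called, 696 (6.23%) higher and 424 (3.80%) lower in index 705, with a median of -0.16. The fits shared 904 called genes, all with the same sign, and 590 genes were called without replicate 3 only. When a further library was left out, the count of 1494 became 737 without replicate 1 and 814 without replicate 5, and 818 without replicate 6. Leaving out replicate 1 or 5 leaves a lone index 705 library, which is assumed to vary like the other sets. Over the 5 pH 6.9 libraries alone, without replicate 3, edgeR called 1339 genes, and 1175 of these were among the 1494. Over all 6 pH 6.9 libraries alone it called 0 genes, with 1418 at an unadjusted p under 0.05. Index 705 and index 706 did not overlap over the 6 libraries, replicate 3 included, for 3293 of the 11226 genes (29.3%) and for 1186 of the 1494 called genes (79.4%). Of all genes tested, 12.5% stood higher in every index 705 library and 16.8% lower. The non-overlap of single genes below is to be read beside these shares. The p-values measure the spread between libraries, which may be technical. In RNA pooled from 100 cells fewer cells of a type and less RNA per cell cannot be told apart.

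Replicate 3 took no part in the fit without it, so its values were set against those calls. Among 717 called genes that were higher in index 705 and reached 20 CPM, its level was nearer the index 705 mean in 542 (75.6%), against 55.6% of the 3364 genes at that level with a positive fold change. For the 655 called genes that were lower in index 705, the level was nearer the index 705 mean in 477 (72.8%), against 66.3% of 3735 genes with a negative fold change. Replicate 3 had a count of 0 for 11.8% of these 655 genes, and for 10.2% of the 3735. The wider groups include the called genes and fold changes of any size. Nearness to a mean says little where the gap is small, so the higher shares among called genes are a description only.

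Genes for making ribosomes and for translation were higher in index 705. Of 69 genes of ribosome biogenesis, 36 rose and 0 fell, with a median log2 fold change of 0.83. Cytosolic ribosomal proteins gave 54 of 78 higher and 0 lower, with all 78 fold changes positive and a median of 1.14. Mitochondrial ribosomal proteins gave 39 of 76 higher and 0 lower (median 0.80), and translation initiation and elongation factors gave 22 of 41 higher and 0 lower (median 0.64). With replicate 3 the counts higher in index 705 were 32, 45, 46 and 15 for these 4 lists in the same order. Without replicate 5 they were 17, 22, 21 and 11, without replicate 1 28, 35, 19 and 13, and without replicate 6 25, 33, 22 and 14. At an unadjusted p under 0.05 edgeR gave 50, 68, 62 and 25 genes higher and 0 lower in each list. The background share called higher in index 705 is 6.64%.

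Several nucleolar proteins that process ribosomal RNA were among the genes higher in index 705. Npm1, nucleophosmin (chromosome 11, 33152287 to 33163206, minus strand), stood at 1883 and 2091 CPM in index 705 replicates 1 and 5 and 4688 CPM in replicate 3, against 799.9, 745 and 519 CPM in index 706 (log2 fold change 1.52 ± 0.22 (SE), edgeR adjusted p = 0.000388, and 0.00509 with replicate 3). Ncl, nucleolin (chromosome 1, 86344719 to 86359400, minus strand), stood at 1573, 2048 and 4303 CPM in index 705 against 766, 707 and 664 CPM in index 706 (log2 fold change 1.33 ± 0.18 (SE), edgeR adjusted p = 0.00025, and 0.00528 with replicate 3). For both genes every index 705 library lay above every index 706 library, and replicate 3 was the highest of all. Nhp2, a protein of the box H/ACA particles that guide pseudouridylation, stood at 809, 861 and 1393 CPM in index 705 against 288, 231 and 214 CPM in index 706 (log2 fold change 1.76 ± 0.21 (SE), edgeR adjusted p = 0.000114, and 0.00298 with replicate 3). Nip7, which acts in 60S subunit maturation, stood at 297, 288 and 505 CPM in index 705 against 115, 95.9 and 108 CPM in index 706, with an edgeR adjusted p of 0.000344, and its sets did not overlap. Nop56 of the box C/D particles, at 851, 1013 and 1153 CPM in index 705 against 554, 418 and 428 CPM in index 706, had an adjusted p of 0.00139 and also did not overlap. Fbl, fibrillarin, was called as well (log2 fold change 1.17, adjusted p = 0.0211). It lost the call without replicates 4, 5 or 6 (highest adjusted p 0.142).

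Among ribosomal proteins, Rpl19 of the large subunit (chromosome 11, 98026710 to 98030492, plus strand) stood at 1375, 1324 and 2275 CPM in index 705 against 639.6, 544 and 519 CPM in index 706 (log2 fold change 1.24 ± 0.20, edgeR adjusted p = 0.000733). Each index 705 library exceeded each index 706 library. Rpl29 and Rpl17, further large-subunit proteins, had log2 fold changes of 1.46 and 1.37 with adjusted p of 0.000388 and 0.000974. As a share of all counts, ribosomal proteins made up 5.80%, 6.26% and 4.72% in index 705, against 3.85%, 2.89% and 3.32% in index 706. The means were 5.59% ± 0.795 and 3.35% ± 0.484 (SD, n = 3 each), with p = 0.1 in an exact two-sided permutation test, the smallest p that 3 against 3 allows. Ribosomal protein genes have many near-identical pseudogenes in mice, and the sources used here do not say how the authors' counting shared such reads.

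Mrpl12, a mitochondrial large-subunit protein, stood at 442, 418 and 481 CPM in index 705 against 156, 154 and 120.4 CPM in index 706 (log2 fold change 1.57 ± 0.21, edgeR adjusted p = 0.00025). Eef1d, an exchange factor of translation elongation, stood at 576, 655 and 1464 CPM in index 705 against 266, 251 and 172 CPM in index 706, with an adjusted p of 0.000388. Eif3g, a subunit of the initiation factor that loads the small subunit, had a log2 fold change of 1.39 (adjusted p = 0.000863). None of these 3 genes overlapped between the sets, as was so for 79.4% of called genes. Eif4a1, the helicase of cap-dependent initiation, was called without replicate 3 (0.98, adjusted p = 0.000897) and not with it (adjusted p = 0.209). It stood at 2309 and 2233 CPM in replicates 1 and 5 but 766 CPM in replicate 3. That is below the 1085, 1304 and 1023 CPM of index 706. Myc, a transcription factor that drives ribosome synthesis, stood at 279, 567 and 85.7 CPM in index 705 against 580.5, 359.6 and 407 CPM in index 706 and was not called (log2 fold change -0.09 ± 0.30, adjusted p = 0.879). Of 11 MYC network genes 0 were higher and 3 lower in index 705, beside background shares of 6.64% and 6.67%. The lower ones were the MYC antagonists Mxd3 (-2.23, adjusted p = 0.00994), Mxd4 (-1.76, 0.00724) and Mxi1 (-1.45, 0.0123). All lost the call with replicate 3 (adjusted p = 0.41, 0.305 and 0.0732) and without replicate 1.

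Promoters of RefSeq genes (GRCm38.p6, 250 bases before to 50 after the start) were searched for short motifs on both strands, with a promoter in the table for 617 of the 745 genes higher and 592 of the 749 genes lower in index 705. The ETS-type motif CCGGAAG was in 26.3% of promoters of genes higher in index 705, 16.1% of those lower in index 705 and 18.6% of those of all genes tested. The E-box CACGTG, which MYC and related factors bind, was in 14.5%, 8.76% and 10.0% in the same order. Among all 32851 promoters of the table the shares were 8.86% for CCGGAAG and 7.15% for CACGTG. Ribosome biogenesis promoters held CCGGAAG in 34.3% and CACGTG in 22.4%. For cytosolic ribosomal proteins the shares were 35.8% and 11.9%, and for mitochondrial ribosomal proteins 32.9% and 9.59%. TTTCCCGC, an E2F-type site, was in 2.07%, 2.00% and 2.08%, and the NRF1-type GCGCATGC in 6.48%, 5.26% and 5.36%. The median GC content of the promoters was 60.3% in each called group and 60.7% for all genes tested. These shares describe letters in a window and carry no test. The promoters of Rpl19 (chr11:98026460-98026759, plus strand) and Nip7 (chr8:107056627-107056926, plus strand) are shown because they hold these motifs, in capitals. There are 1 CACGTG and 1 CCGGAAG in Rpl19 and 2 CCGGAAG in Nip7, on either strand. The other Rpl19 promoter, which is not shown, holds 1 CACGTG and 0 CCGGAAG.
Rpl19: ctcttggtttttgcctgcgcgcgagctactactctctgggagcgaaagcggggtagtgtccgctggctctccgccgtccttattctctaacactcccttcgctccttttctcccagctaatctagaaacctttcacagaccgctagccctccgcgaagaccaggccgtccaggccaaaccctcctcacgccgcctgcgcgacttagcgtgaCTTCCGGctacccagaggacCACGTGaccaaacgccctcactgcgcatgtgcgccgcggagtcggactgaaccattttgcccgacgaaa
Nip7: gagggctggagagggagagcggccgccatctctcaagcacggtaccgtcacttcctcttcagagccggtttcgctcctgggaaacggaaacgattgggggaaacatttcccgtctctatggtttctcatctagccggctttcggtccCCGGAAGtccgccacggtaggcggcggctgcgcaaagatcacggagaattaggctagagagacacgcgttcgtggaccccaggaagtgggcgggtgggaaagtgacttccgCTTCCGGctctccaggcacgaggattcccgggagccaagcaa

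**Figure D1:**
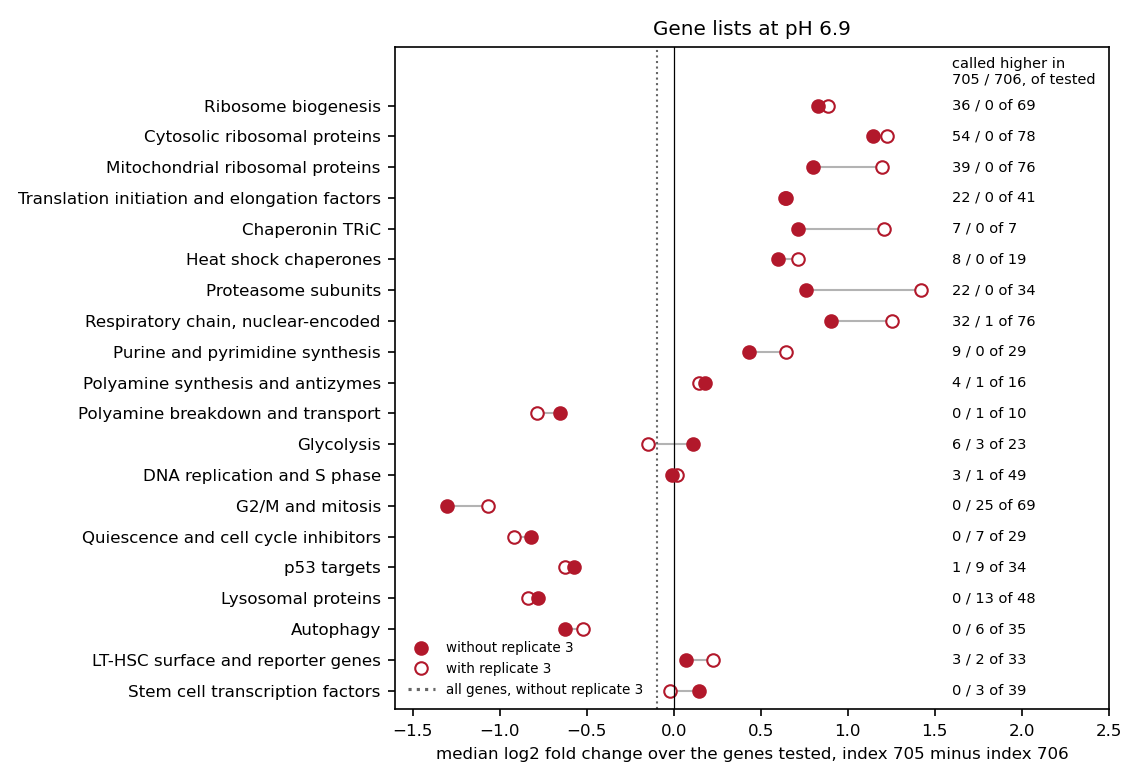
Median log2 fold change (index 705 minus index 706 at pH 6.9) over the tested genes of 20 gene lists, without replicate 3 (filled) and with it (open), beside the median of all genes (dotted line); the figures on the right give the genes called higher and lower in index 705 without replicate 3. Lists for ribosomes, translation, TRiC and heat shock chaperones, the proteasome and respiration lie above 0, G2/M, quiescence, p53, lysosome and autophagy lists lie below, and those for stem cell identity lie near 0.

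Genes of the TRiC chaperonin, heat shock chaperones, the proteasome and respiration were also higher in index 705, while 1 of 19 chaperones of the endoplasmic reticulum was called, in the other direction. All 7 tested subunits of the TRiC chaperonin, which folds actin and tubulin, were higher in index 705 (median 0.72), 6 of them with replicate 3. Heat shock chaperones gave 8 of 19 higher and 0 lower (7 and 0 with replicate 3). Chaperones of the endoplasmic reticulum gave 0 of 19 higher and 1 lower (median -0.03), and 1 and 1 with replicate 3. At an unadjusted p under 0.05 edgeR gave 2 and 2 of them. Proteasome subunits gave 22 of 34 higher and 0 lower (23 and 0 with replicate 3). Nuclear-encoded respiratory chain genes gave 32 of 76 higher and 1 lower (40 and 0 with replicate 3), and purine and pyrimidine synthesis gave 9 of 29 higher and 0 lower. Without replicate 5 the counts higher in index 705 were 4 for TRiC, 4 for the heat shock chaperones, 11 for the proteasome, 11 for the respiratory chain and 4 for nucleotide synthesis. Without replicate 1 they were 3, 4, 12, 12 and 7, and without replicate 6 they were 4, 3, 14, 11 and 6 in the same order. Without replicate 4 the count for the respiratory chain was 14. At an unadjusted p under 0.05 the counts higher and lower were 27 and 0 for the proteasome and 13 and 1 for nucleotide synthesis. Of all genes tested, edgeR called 6.64% higher and 6.67% lower in index 705, and 6.23% and 3.80% with replicate 3.

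Cct5, a TRiC subunit, stood at 1786, 1726 and 4575 CPM in index 705 against 948, 899.5 and 784 CPM in index 706 (log2 fold change 0.99 ± 0.16, edgeR adjusted p = 0.000889). Hspe1, the mitochondrial co-chaperonin, stood at 489.8, 596 and 797 CPM in index 705 against 167, 112 and 104 CPM in index 706 (log2 fold change 2.08 ± 0.33, adjusted p = 0.000914). Its lowest index 705 library was above its highest index 706 library. Psma7, a core subunit of the proteasome, stood at 1249, 957 and 1967 CPM in index 705 against 545, 484 and 363 CPM in index 706, with an adjusted p of 0.000905. Psmd14, the deubiquitinase of the proteasome lid, reached 2119 CPM in replicate 3. It stood at 571 and 579 CPM in replicates 1 and 5 and at 299.6, 261 and 278 CPM in index 706 (adjusted p = 0.00156). Atp5g1, a ring subunit of ATP synthase, stood at 849, 808 and 1114 CPM in index 705 against 327, 219.7 and 260.1 CPM in index 706 (log2 fold change 1.61 ± 0.28, adjusted p = 0.00152). Cycs, cytochrome c, stood at 369, 399.9 and 952 CPM in index 705 against 197, 166 and 129 CPM in index 706 with an adjusted p of 0.00267. All 6 genes were higher in each index 705 library than in any index 706 library, which held for 12.5% of all genes tested.

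Nme1, a nucleoside diphosphate kinase, stood at 1216, 996 and 2006 CPM in index 705 against 406, 379 and 314 CPM in index 706 (log2 fold change 1.58 ± 0.19, edgeR adjusted p = 0.000131). Dctpp1, which hydrolyses modified dCTP, stood at 379, 334 and 569 CPM in index 705 against 124, 124 and 128 CPM in index 706, with an adjusted p of 0.000529. Neither gene overlapped between the sets. Glycolysis gave 6 of 23 genes higher and 3 lower in index 705 (median 0.11), beside background shares of 6.64% and 6.67%. With replicate 3 it gave 2 higher and 3 lower, and the median turned to -0.15. Without replicate 5 or replicate 6 it gave 3 higher and 1 lower, and without replicate 1 5 and 1. Mif, a cytokine placed in the hypoxia list, was higher at 879, 1126 and 1036 CPM in index 705 against 405, 272 and 280.0 CPM in index 706 (adjusted p = 0.00179). Gapdh, a glycolytic dehydrogenase, and Ldha, which turns pyruvate into lactate, were called without replicate 3 (log2 fold changes 0.71 and 0.73, adjusted p = 0.00824 and 0.0169) and not with it (0.683 and 0.676). Both lost the call without replicate 5, and Ldha also without replicate 6 (without replicate 5, adjusted p = 0.109 and 0.231). In replicate 3 Gapdh stood at 669.6 CPM, against 2806 and 3431 CPM in replicates 1 and 5 and 2027, 2057 and 1597 CPM in index 706. Replicate 3 was the lowest of the 6 libraries.

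The entry enzyme of polyamine synthesis and spermidine synthase were higher in index 705. Of 16 genes of synthesis and antizymes, 4 were higher and 1 lower in index 705 (median 0.18). Of 10 genes of breakdown and transport 0 were higher and 1 lower (median -0.65), beside background shares of 6.64% and 6.67%. With replicate 3 the counts were 2 higher and 1 lower, and 0 higher and 1 lower. The count of synthesis genes higher in index 705 was also 2 without replicate 1, 5 or 6. Srm, spermidine synthase (chromosome 4, 148591503 to 148594993, plus strand), stood at 705 and 757 CPM in index 705 replicates 1 and 5 and 659 CPM in replicate 3, against 278, 186 and 188 CPM in index 706 (log2 fold change 1.74 ± 0.23 (SE), edgeR adjusted p = 0.000248, and 0.00437 with replicate 3). Odc1, ornithine decarboxylase, the entry enzyme of the pathway (chromosome 12, 17544794 to 17551505, plus strand), stood at 507, 626 and 507 CPM in index 705 against 237, 287 and 275 CPM in index 706 (log2 fold change 1.07 ± 0.17 (SE), edgeR adjusted p = 0.000771, and 0.0106 with replicate 3). The sets did not overlap for either enzyme, and both kept their calls when each pH 6.9 library was left out in turn. Mri1 and Mtap of the methionine salvage that follows polyamine synthesis were also called (log2 fold changes 0.78 and 0.72). Their edgeR adjusted p were 0.0269 and 0.0336, and 0.0504 and 0.201 when replicate 3 was added. Mri1 lost its call without replicates 1, 4, 5 or 6, and Mtap without replicates 1, 2, 5 or 6.

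Paox, a peroxisomal oxidase of acetylated polyamines, was lower at 0.600, 3.93 and 0 CPM in index 705 against 6.82, 26.8 and 9.26 CPM in index 706 (log2 fold change -2.42 ± 0.68, edgeR adjusted p = 0.0245). Its call was lost without replicate 1 or 4 (highest adjusted p 0.162). Sat1, which acetylates spermidine and spermine, stood at 165, 82.8 and 286 CPM in index 705 against 218, 158 and 221 CPM in index 706 and was not called (adjusted p = 0.156). Smox, spermine oxidase, stood at 23.4, 18.4 and 5.94 CPM in index 705 against 28.4, 42.3 and 22.1 CPM in index 706 and was not called either (adjusted p = 0.384). Eif5a (chromosome 11, 69916714 to 69921958, minus strand), the carrier of hypusine, stood at 4107 and 4547 CPM in index 705 replicates 1 and 5, against 2316, 2020.2 and 1724 CPM in index 706 (log2 fold change 1.08 ± 0.17, adjusted p = 0.000697). Replicate 3 of index 705 held 219 CPM of Eif5a, the lowest of the 6 libraries. With it the adjusted p was 0.595.

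Mitosis genes were lower in index 705, and few genes of DNA replication were called. Of 69 genes of G2/M and mitosis 0 were higher and 25 lower in index 705, all 69 fold changes were negative and the median was -1.31. With replicate 3 the count was 18 lower and 0 higher, without replicate 1 it was 5, without replicate 6 it was 16 and without replicate 5 it was 37. Of 49 genes of DNA replication and S phase 3 were higher and 1 lower (median -0.01), and of 12 G1 cyclins and kinases 1 was higher and 0 lower. At an unadjusted p under 0.05 edgeR gave 50 G2/M genes lower and 0 higher. The background share of genes called lower in index 705 is 6.67%.

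Ccnb2, the mitotic cyclin B2 (chromosome 9, 70407692 to 70421547, minus strand), stood at 15.6 and 49.9 CPM in index 705 replicates 1 and 5 and 165 CPM in replicate 3, against 391, 345 and 284 CPM in index 706 (log2 fold change -3.30 ± 0.36 (SE), edgeR adjusted p = 8.09e-05, and 0.0221 with replicate 3). Cenpa, the centromeric histone (chromosome 5, 30666777 to 30674830, plus strand), stood at 7.8, 40.7 and 88.3 CPM in index 705 against 176, 143 and 174 CPM in index 706 (log2 fold change -2.64 ± 0.39 (SE), edgeR adjusted p = 0.000529, and 0.0309 with replicate 3). Nusap1, which binds spindle microtubules, stood at 35.4, 50.5 and 142 CPM in index 705 against 231, 209.7 and 311 CPM in index 706 (log2 fold change -2.54 ± 0.35, adjusted p = 0.000388). Prc1, which bundles the central spindle, stood at 54.6, 88.1 and 46.7 CPM in index 705 against 291, 279 and 320.2 CPM in index 706 (adjusted p = 0.00366). For all 4 genes every index 705 library was below every index 706 library, which held for 16.8% of all genes tested. For Ccnb2, Cenpa and Nusap1 replicate 3 was the highest of index 705. Ccnb1, Top2a and Mki67, a mitotic cyclin, a topoisomerase and a proliferation antigen, had log2 fold changes of -1.96, -0.92 and -0.93 and were not called (adjusted p = 0.0918, 0.135 and 0.0746). Ube2c, a ubiquitin-conjugating enzyme of mitotic exit, stood at 2.4, 60.1 and 184 CPM in index 705 against 198, 176 and 138 CPM in index 706. Its values in index 705 lay below the range of index 706 in replicates 1 and 5 and within it in replicate 3. Pcna, the sliding clamp of replication, stood at 633, 712 and 2990.0 CPM in index 705 against 459, 619 and 542 CPM in index 706. Mcm5, a helicase subunit, stood at 184, 298 and 50.9 CPM in index 705 against 269, 321 and 228 CPM in index 706. Neither was called (adjusted p = 0.356 and 0.69).

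Promoters of the G2/M list held the motifs of cell cycle genes more often than promoters at large. CCAAT, the site of NF-Y, was in 73.4% and TTTGAA, the core of the cell cycle homology region, in 75.0%, against 38.0% and 12.2% for all genes tested and 37% and 17.9% for all promoters. Among all genes lower in index 705 the shares were 39.0% and 14.0%, and among those higher in index 705 they were 36.0% and 10.9%. The Ccnb2 promoter (chr9:70421505-70421804, minus strand) is shown because Ccnb2 had the smallest p of this list. Its 3 CCAAT and 2 TTTGAA matches are in capitals.
Ccnb2: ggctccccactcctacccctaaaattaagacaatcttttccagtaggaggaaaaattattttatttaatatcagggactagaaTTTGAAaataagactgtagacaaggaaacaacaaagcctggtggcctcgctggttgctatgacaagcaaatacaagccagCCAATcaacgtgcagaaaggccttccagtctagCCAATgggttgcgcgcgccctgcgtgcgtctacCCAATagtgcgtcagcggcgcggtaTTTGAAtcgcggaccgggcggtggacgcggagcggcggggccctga

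Genes of lysosomes, quiescence and the p53 response were lower in index 705. Their calls are to be read beside the shares of all genes tested, 6.64% higher and 6.67% lower (6.23% and 3.80% with replicate 3). Of 48 lysosomal protein genes 0 were higher and 13 lower (median -0.78), of 35 autophagy genes 0 and 6, of 29 genes of quiescence and cell cycle inhibition 0 and 7 (median -0.82), and of 34 p53 targets 1 and 9 (median -0.58). With replicate 3 the counts lower in index 705 were 6, 3, 6 and 5 for these lists in the same order. At an unadjusted p under 0.05 they were 21, 12, 12 and 14, and those higher 0, 1, 0 and 3. Without replicate 1 the calls lower in index 705 were 8, 3, 2 and 4, without replicate 5 10, 3, 2 and 6, and without replicate 6 9, 5, 4 and 4.

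Ctsd, the lysosomal protease cathepsin D (chromosome 7, 142375911 to 142388038, minus strand), stood at 1171 and 805 CPM in index 705 replicates 1 and 5 and 37.3 CPM in replicate 3, against 1999, 2712 and 2195 CPM in index 706. Its log2 fold change was -1.24 ± 0.23 (SE, edgeR adjusted p = 0.00217), and with replicate 3 the adjusted p was 0.0969, although all 3 libraries lay below index 706. Grn, progranulin, a lysosomal glycoprotein, stood at 85.2, 71.3 and 13.6 CPM in index 705 against 185, 219.7 and 211 CPM in index 706 (log2 fold change -1.41 ± 0.21, adjusted p = 0.000449, and 0.0173 with replicate 3). Lamp2, a lysosomal membrane protein, stood at 259, 243 and 397 CPM in index 705 against 409.9, 619 and 601 CPM in index 706 (adjusted p = 0.00181), and for both genes all index 705 libraries were below index 706. Lamp1, its paralogue, was not called (log2 fold change -0.27, adjusted p = 0.348). Sqstm1, the autophagy receptor p62, stood at 237, 164 and 107 CPM in index 705 against 469.6, 469 and 612 CPM in index 706 (adjusted p = 0.00152), with all index 705 libraries below index 706.

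Cdkn1a, the cell cycle inhibitor p21 and a p53 target (chromosome 17, 29090976 to 29100727, plus strand), stood at 106, 79.3 and 145 CPM in index 705 against 216, 276 and 278 CPM in index 706 (log2 fold change -1.49 ± 0.30 (SE), edgeR adjusted p = 0.00319, and 0.0297 with replicate 3). Ypel3, a p53 target linked to growth arrest, stood at 94.2, 62.9 and 97.6 CPM in index 705 against 443, 386 and 427 CPM in index 706 (log2 fold change -2.45 ± 0.39, adjusted p = 0.000905). Sesn1, a sestrin that restrains mTORC1, stood at 67.2, 67.7 and 0.849 CPM in index 705 against 171, 160.3 and 196 CPM in index 706 (adjusted p = 0.000889, and 0.0717 with replicate 3). All index 705 libraries were below all index 706 libraries for these 3 genes. Gclc, the catalytic subunit of glutamate cysteine ligase in glutathione synthesis, was lower at 120.1, 123 and 33.1 CPM in index 705 against 323, 530.2 and 688 CPM in index 706 (log2 fold change -2.10 ± 0.34, adjusted p = 0.000863). Gclm, the modifier subunit of that ligase, was called without replicate 3 (log2 fold change -1.17, adjusted p = 0.000388) but not with it (0.229). Replicate 3 at 3663 CPM exceeded the 2934, 3559 and 3420.4 CPM of index 706, while replicates 1 and 5 stood below at 1601 and 1369 CPM. Of 22 NRF2 target genes 0 were higher and 2 lower in index 705, beside background shares of 6.64% and 6.67%. With replicate 3 the NRF2 list gave 3 higher and 1 lower.

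In the promoters of the lysosomal list CACGTG was in 31.8% and the longer TCACGTGA, which contains it and is the core of the element bound by TFEB, in 11.4%, against 10.0% and 1.86% for all genes tested. For TCACGTGA the share was 1.66% among genes higher in index 705, 1.88% among those lower in index 705 and 0.974% among all promoters. The Ctsd promoter (chr7:142387778-142388077, minus strand) is shown because it holds 2 CACGTG matches, 1 of them within TCACGTGA, in capitals.
Ctsd: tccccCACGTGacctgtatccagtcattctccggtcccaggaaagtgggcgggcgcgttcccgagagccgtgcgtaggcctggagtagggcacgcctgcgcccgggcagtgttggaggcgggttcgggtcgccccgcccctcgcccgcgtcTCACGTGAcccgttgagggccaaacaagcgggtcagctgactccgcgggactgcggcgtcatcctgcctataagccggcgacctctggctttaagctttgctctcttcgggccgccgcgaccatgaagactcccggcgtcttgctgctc

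The markers that define LT-HSCs were not called between the sets. All 9 of them, among them Procr, Ly6a, Kit, Slamf1, Mecom, Hlf, Fgd5 and Ctnnal1, were detected in replicates 1 and 5 of index 705 and in replicates 2 and 6 of index 706. Fgd5 was at 0 in replicate 4, and Slamf1, Fgd5 and Ctnnal1 were at 0 in replicate 3. Procr, the protein C receptor and a surface marker of LT-HSCs, stood at 49.8, 22.7 and 37.3 CPM in index 705 against 19.9, 32.9 and 7.56 CPM in index 706 (adjusted p = 0.335 by edgeR). Ly6a, the surface antigen Sca-1, stood at 937, 675 and 2041 CPM in index 705 against 771, 1046 and 902 CPM in index 706 (adjusted p = 0.815). The sets overlapped for both. Over the 9 markers the log2 fold changes ran from -0.86 ± 0.45 (Ctnnal1, edgeR adjusted p = 0.221) to 2.36 ± 1.27 (Fgd5, 0.234). Slamf1 had 1.93 ± 0.77 (0.101). With so few libraries a missing call does not show equal levels. Of 33 surface and reporter genes of LT-HSCs 3 were higher and 2 lower in index 705 (median 0.07, and 0 higher without replicate 1), and of 39 stem cell transcription factors 0 were higher and 3 lower. These counts are to be read beside the background shares of 6.64% higher and 6.67% lower. With replicate 3 the counts were 4 higher and 0 lower for the surface and reporter genes, and 0 and 3 for the transcription factors. Among the lower factors, Gata2 stood at 68.4, 40.3 and 4.24 CPM in index 705 against 131, 134 and 168 CPM in index 706. Its edgeR adjusted p was 0.0317, and 0.0561 with replicate 3. Gata2 lost its call without replicates 1, 4, 5 or 6. Cd34, a sialomucin of progenitors that is low on LT-HSCs, stood at 706, 746 and 83.2 CPM in index 705 against 1255, 1932 and 1212 CPM in index 706 (log2 fold change -1.03 ± 0.24, adjusted p = 0.0093, and 0.0738 with replicate 3). It lost its call without replicate 1 or 5. Cd48, a further progenitor marker, stood at 4.2, 40.6 and 202 CPM in index 705 against 0, 6.76 and 2.65 CPM in index 706. It was not called without replicate 3 (adjusted p = 0.211) and was called higher in index 705 with it (0.0395), where replicate 3 was its highest library. Flt3, another, stood at 0, 24.4 and 6.79 CPM in index 705 against 6.82, 18.2 and 12.1 CPM in index 706 and was not called (adjusted p = 0.972).

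Some receptors for homing and adhesion were among the genes lower in index 705. Of 26 adhesion and niche genes 6 were lower and 3 higher (median -0.23), beside background shares of 6.67% and 6.64%. With replicate 3 the counts were 5 lower and 3 higher of 25. S1pr1, the sphingosine-1-phosphate receptor that guides cells out of marrow and lymphoid tissue (chromosome 3, 115710433 to 115715072, minus strand), stood at 15 and 7.44 CPM in index 705 replicates 1 and 5 and 0 CPM in replicate 3, against 120.0, 99.1 and 99.8 CPM in index 706 (log2 fold change -3.35 ± 0.37 (SE), edgeR adjusted p = 8.09e-05, and 0.00459 with replicate 3). Pecam1, an adhesion molecule of stem cells and endothelium, stood at 57.6, 68 and 22.1 CPM in index 705 against 254, 275 and 340.1 CPM in index 706 (log2 fold change -2.21 ± 0.28, adjusted p = 0.000149). Selplg, the ligand of P-selectin, stood at 217, 288 and 43.3 CPM in index 705 against 799.9, 894 and 944 CPM in index 706 (adjusted p = 0.000381). Cd44, the hyaluronan receptor, stood at 87.6, 85.8 and 1.7 CPM in index 705 against 177, 194 and 226 CPM in index 706 (adjusted p = 0.00151, and 0.0914 with replicate 3). None of the 4 genes overlapped between the sets, and each was lower throughout index 705, as were 16.8% of all genes tested. F2r, the thrombin receptor, was lower at 98.4, 175 and 22.1 CPM in index 705 against 729, 416 and 929 CPM in index 706 (adjusted p = 0.0118). It lost its call without replicate 1 (0.111). Selp, P-selectin itself, had a log2 fold change of 2.10 (adjusted p = 0.0192), which was not called with replicate 3 (0.224), where it stood at 1.7 CPM.

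**Figure D2:**
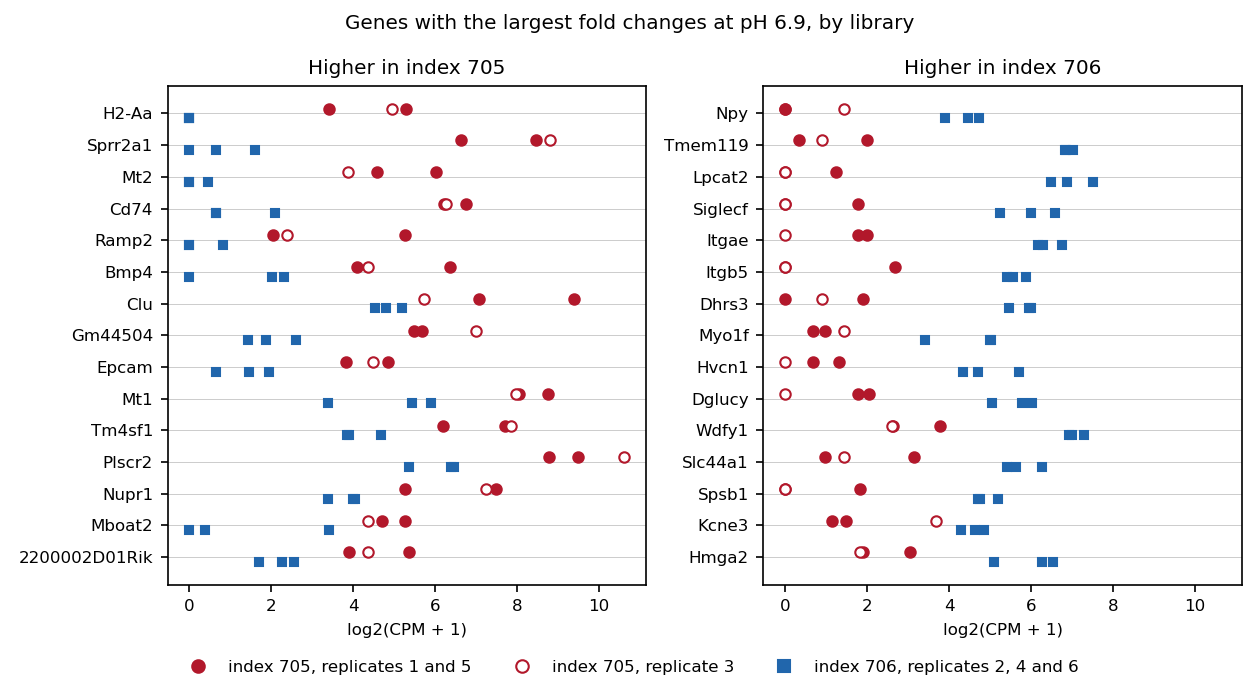
Level of 30 genes in each pH 6.9 library as log2(CPM + 1), with index 705 (circles, replicate 3 open) above index 706 (squares) in each row. The genes are the 15 with the largest fold change in each direction among called genes of at least 20 CPM in a set whose 6 libraries do not overlap, so that the gap between circles and squares is part of how they were chosen.

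The genes with the largest fold changes were mostly low in their low set and were chosen for not overlapping over the 6 libraries, so that their levels describe the extremes. Some MHC class II genes, which present peptides to T cells, were among those higher in index 705. H2-Aa stood at 9.6, 38.3 and 29.7 CPM in index 705 and had a count of 0 in all 3 libraries of index 706. It was at least 115.0-fold higher against a floor of 3 counts over index 706 (edgeR adjusted p = 0.00383). This bound is mostly set by replicate 5, which holds 283 of the 299 counts, and it was 33.5-fold without replicate 5 and 56.8-fold without replicate 6. Cd74, the invariant chain, stood at 73.8, 107 and 76.4 CPM in index 705 against 0.569, 3.23 and 0.567 CPM in index 706 (log2 fold change 5.89 ± 1.10, adjusted p = 0.00451, and 0.00693 with replicate 3). Of 10 MHC class II genes 3 were higher and 0 lower, the other being H2-Ab1 (adjusted p = 0.00555), which lost its call without replicate 5 (0.179). The background shares for this list are 6.64% higher and 6.67% lower. Lyz2, Csf1r and Cd14, defining markers of monocytes, were not called. The 6 monocyte and macrophage markers summed to 233, 165 and 499 CPM in index 705 and 166, 191 and 198 CPM in index 706. The part of other cell types in the MHC result was not tested.

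Sprr2a1, known from the cornified layer of epithelia (chromosome 3, 92215799 to 92221911, plus strand), stood at 352, 98 and 448 CPM in index 705 against 0.569, 2.06 and 0 CPM in index 706 (log2 fold change 8.05 ± 0.85, edgeR adjusted p = 0.000149, and 0.000907 with replicate 3). Its index 705 libraries ranged widely but all exceeded those of index 706. It has near-identical neighbours, and a sharing of reads among them was not tested. Epcam, a surface protein known from epithelia, stood at 27.6, 13.3 and 21.2 CPM in index 705 against 0.569, 1.76 and 2.84 CPM in index 706. Tm4sf1, another, stood at 206, 72.3 and 228 CPM in index 705 against 24.4, 13.8 and 13.4 CPM in index 706. Their adjusted p were 0.0244 and 0.00528, both lost without replicate 1, and Epcam also without replicates 2 or 4. Epithelial-type genes were listed with earlier results of these data known, so their count is no independent support. Of 12 such genes 5 were higher and 0 lower in index 705 (6 and 0 with replicate 3), beside background shares of 6.64% and 6.67%. The count was 1 without replicate 1 and 3 without replicate 2, 4, 5 or 6. Krt19 was at 0 in all 6 libraries and Krt8 at 0 in 5 of them, while Krt18 stood at 214, 70.4 and 373 CPM in index 705 against 123, 102 and 87.5 CPM in index 706. The metal-binding Mt2 had a summed count of 276 in replicates 1 and 5 of index 705 and of 2 in index 706. At equal depth the ratio was 159 (95% counting interval 43.7 to 1322), with an adjusted p of 0.000506. The ratio was 332 without replicate 5, and without replicate 6, which holds both index 706 counts, Mt2 was at least 52.4-fold higher against a floor of 3 counts. Mt1, its neighbour and close paralogue, stood at 432, 261 and 250.4 CPM in index 705 against 58.6, 9.41 and 42.3 CPM in index 706 (adjusted p = 0.0371), and was lost without replicates 1, 4, 5 or 6. Clu, the chaperone clusterin, stood at 664, 133 and 51.8 CPM in index 705 against 26.7, 22.1 and 35.5 CPM in index 706 (adjusted p = 0.00593), with a wide spread within index 705.

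Among the genes lower in index 705, Npy, neuropeptide Y (chromosome 6, 49822710 to 49829507, plus strand), had a count of 0 in replicates 1 and 5, 1.7 CPM in replicate 3 and 25.6, 21.2 and 13.8 CPM in index 706. It was at least 54.9-fold lower against a floor of 3 counts over replicates 1 and 5 (edgeR adjusted p = 0.000427), and at least 10.1-fold without replicate 5, the deepest library. Tmem119, a membrane protein used as a marker of microglia, stood at 3.00, 0.271 and 0.849 CPM in index 705 against 113, 115 and 128 CPM in index 706 (log2 fold change -7.03 ± 0.81, adjusted p = 0.000149, and 0.000516 with replicate 3). Lpcat2, an acyltransferase of platelet-activating factor synthesis, stood at 0, 1.35 and 0 CPM in index 705 against 116, 88.5 and 181 CPM in index 706 (adjusted p = 8.09e-05). Siglecf, a sialic acid receptor of eosinophils, stood at 0, 2.44 and 0 CPM in index 705 against 62.5, 36.8 and 95.5 CPM in index 706 (adjusted p = 0.000721). By the rule that chose them, every index 705 library lay below every index 706 library for each of these genes. Itgae, an integrin chain, stood at 3.00, 2.44 and 0 CPM in index 705 against 106, 70.6 and 77.7 CPM in index 706 (adjusted p = 0.000232). Itgb5, another, stood at 5.4, 0 and 0 CPM in index 705 against 41.5, 57.3 and 46.1 CPM in index 706 (adjusted p = 0.00797). Dhrs3, a retinaldehyde reductase, stood at 0, 2.71 and 0.849 CPM in index 705 against 60.8, 43.2 and 63.1 CPM in index 706, near 0 throughout index 705. Wdfy1, an endosomal adaptor of Toll-like receptor signalling, stood at 12.6, 5.14 and 5.09 CPM in index 705 against 121, 156 and 126 CPM in index 706, with the smallest adjusted p of the 11226 genes (4e-06, and 6.23e-05 with replicate 3). Hvcn1, a voltage-gated proton channel, stood at 0.600, 1.49 and 0 CPM in index 705 against 51.2, 25 and 19.1 CPM in index 706 (adjusted p = 0.000974). Hmga2, a chromatin protein of fetal stem cells, stood at 7.2, 2.71 and 2.55 CPM in index 705 against 75.6, 92.3 and 33.1 CPM in index 706 (adjusted p = 0.00366, but 0.0639 without replicate 5).

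Few genes of acid-base handling were called. Of 22 acid-base and lactate transport genes 1 was higher and 3 lower in index 705, beside background shares of 6.64% and 6.67%, and with replicate 3 the counts were 0 and 1. Without replicate 2 or 6 they were also 0 and 1. Slc16a1, a lactate and proton cotransporter, stood at 90.0, 147 and 48.4 CPM in index 705 against 63.1, 65.3 and 52.6 CPM in index 706 (log2 fold change 0.98, edgeR adjusted p = 0.0378, and 0.275 with replicate 3). Car2, a carbonic anhydrase, stood at 834, 482 and 1136 CPM in index 705 against 1689.6, 1128 and 1681 CPM in index 706 (adjusted p = 0.0389, and 0.134 with replicate 3). Gpr65, a proton-sensing receptor, stood at 9.0, 16.4 and 15.3 CPM in index 705 against 10.2, 25 and 15.5 CPM in index 706. It was not called (adjusted p = 0.727). Slc16a1 lost its call without replicates 2, 4, 5 or 6 and Car2 without replicates 2, 5 or 6. The subunits of the vacuolar proton pump, which acidifies lysosomes, gave 0 of 16 higher and 2 lower. These were Atp6v1a (edgeR adjusted p = 0.0358) and Atp6v1b2 (0.0451), neither of which was called with replicate 3 (0.127 and 0.128). Atp6v1a also lost its call without replicates 1, 4, 5 or 6, and Atp6v1b2 without replicates 1, 2, 4, 5 or 6.

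Other lists held few calls in number, to be read beside the background shares of 6.64% higher and 6.67% lower in index 705. Cytokine receptors and STAT feedback genes gave 0 of 33 higher and 3 lower in index 705. Dusp6, a phosphatase that restrains ERK, stood at 66.6, 30.7 and 1.7 CPM in index 705 against 118, 131 and 128 CPM in index 706 (edgeR adjusted p = 0.0127, and 0.0657 with replicate 3). Jak1, a kinase of cytokine receptors, was called without replicate 3 (log2 fold change -1.05, adjusted p = 0.0171) but had a log2 fold change of 0.01 with it (adjusted p = 0.996). Replicate 3 stood at 766 CPM and replicates 1 and 5 at 186 and 179 CPM, against 285, 485 and 350.5 CPM in index 706. Among 17 immediate early genes 1 was higher, Fosl1 of the AP-1 family at 72, 53.1 and 8.49 CPM in index 705 against 6.82, 17.9 and 13.6 CPM in index 706 (adjusted p = 0.0039, and 0.0816 with replicate 3). Interferon response genes gave 2 of 41 higher and 2 lower. MHC class I and peptide loading genes gave 2 of 10 each way, above both background shares, but 1 each way with replicate 3. Without replicate 4 the count of them higher in index 705 was 0, so these counts rest on few genes. Among genes of other lineages, 27 megakaryocyte genes gave 2 higher and 2 lower, 16 erythroid genes 0 and 2, 15 monocyte genes 0 and 1, 11 mast cell genes 1 and 1, and 10 lymphoid genes 1 and 1. Of 12 neutrophil granule genes 0 were called without replicate 3 by edgeR, with 1 higher and 1 lower at an unadjusted p under 0.05, and 2 were called higher with it.

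Within a set, libraries also differed. Over 5528 genes that reached 50 CPM in a pH 6.9 library, the median absolute difference in log2 CPM was 0.309 between index 705 replicates 1 and 5, and between pairs of index 706 it was 0.285 to 0.300. The Spearman rho of whole profiles, over 11226 genes, was 0.932 between replicates 1 and 5, 0.938 to 0.953 within index 706 and 0.874 to 0.910 between replicates 1 and 5 of index 705 and index 706. Some erythroid and megakaryocyte markers were among the genes with a wide spread within index 706. The presence of cells of these lineages was not tested. Hba-a1, an alpha globin, stood at 1.8, 2.71 and 1.7 CPM in index 705 and at 2.27, 0 and 94.9 CPM in index 706. Pf4, a platelet chemokine, stood at 18.6, 45.8 and 167 CPM in index 705 and at 122, 0.882 and 226 CPM in index 706. Vwf, a platelet adhesion factor, stood at 72.6, 21.8 and 2.55 CPM in index 705 and at 14.2, 0 and 34.2 CPM in index 706. Replicate 6 was the highest of index 706 for Hba-a1, Pf4 and Vwf and for the megakaryocyte markers Gp1ba and Gp9. In contrast, replicate 2 was the highest of index 706 for the megakaryocyte markers Itga2b and Ppbp and the erythroid marker Klf1. Between index 705 replicates 1 and 5 the genes with the widest range included the mitotic Sgo2a (0 and 19.5 CPM) and Ube2c (2.4 and 60.1 CPM), Cd244a of the SLAM family (0 and 30.1 CPM) and the mast cell protease Cpa3 (0 and 17.7 CPM). Replicate 1 was below replicate 5 for all 4 of them.

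The gap between the index sets of pH 6.9 was then set against the gaps between the index sets of the other treatments, which hold odd-numbered and even-numbered replicates in the same way and share no library with it. At pH 7.4 edgeR called 358 genes (3.19%) between index 707 and index 708, and in fresh cells 6 genes (0.0534%) between index 701 and index 702, with 847 at an unadjusted p under 0.05. With pH 6.9 replicate 3 in the fit, which shares its estimate of the spread over all sets, both counts were 0 of 11169 (0.00%), with 906 and 299 genes at an unadjusted p under 0.05 by edgeR. The effect of index 705 against 706 differed from that of 707 against 708 for 1934 genes (17.2%), and from that of 701 against 702 for 1349 genes (12.0%). With replicate 3 these counts were 934 (8.36%) and 251 (2.25%). The count against fresh cells was 678 without fresh replicate 2 and 469 without fresh replicate 3, each of which leaves a lone library in its set. These tests share the libraries of index 705 and 706 with the comparison above.

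At pH 7.4 the direction was opposite for most genes called in both treatments. Of 203 such genes, which are 13.6% of the calls at pH 6.9 and 56.7% of those at pH 7.4, 199 were opposite in sign and 4 had the same sign. For the 199, index 705 stood with index 708 and index 706 with index 707. With replicate 3 in the fit no gene was called at pH 7.4, so that this overlap exists only without it. Over the 69 ribosome biogenesis genes the median log2 fold change was 0.83 for 705 minus 706 and -0.57 for 707 minus 708, and the difference of effects was called for 43 genes upward and 0 downward. For the 48 lysosomal genes the medians were -0.78 and 0.37, with 1 called upward and 18 downward, and for quiescence genes -0.82 and 0.56, with 0 and 11. The 69 G2/M genes were lower in the index of the odd-numbered replicates in both cultures, with medians of -1.31 and -0.56, and the difference of effects was called for 0 upward and 7 downward. In fresh cells their median for 701 minus 702 was 0.65, and the difference of effects was called for 0 upward and 26 downward. Over all genes tested the difference was called for 8.51% upward and 8.72% downward against pH 7.4, and for 5.63% and 6.39% against fresh cells. The 7 of 69 G2/M genes called downward against pH 7.4 are near the share of all genes. When replicate 3 was added, the differences from pH 7.4 were called for 30 ribosome biogenesis genes upward and 0 downward, for 0 and 7 lysosomal, 0 and 8 quiescence and 0 and 1 G2/M genes. The difference from fresh cells was then called for 0 and 4 G2/M genes. Over all genes the shares were then 4.83% upward and 3.54% downward against pH 7.4, and 1.18% and 1.07% against fresh cells.

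Set means of single genes show the same values by treatment. Srm averaged 731 ± 36.5 CPM in index 705 and 218 ± 52.3 CPM in index 706 at pH 6.9. The means were 276 ± 25.8 and 712 ± 95.7 CPM in index 707 and 708 at pH 7.4, and 552 ± 241 and 795 ± 87.8 CPM in index 701 and 702 of fresh cells (SD, n = 2, 3, 3, 3, 2 and 2). Its difference of effects had an edgeR adjusted p of 1.33e-05 against pH 7.4 and 0.000798 against fresh cells. Index 705 was nearest index 708 and index 702 for Srm, and index 706 was nearest index 707. Cdkn1a averaged 92.8 ± 19 CPM in index 705 and 256 ± 35 CPM in index 706 at pH 6.9. The means were 273 ± 103 and 64.3 ± 9.72 CPM in index 707 and 708 at pH 7.4, and 90.5 ± 6.71 and 55.3 ± 21.4 CPM in index 701 and 702 of fresh cells, with adjusted p of 1.55e-05 and 0.00313. By their means, index 706 and index 707 were high for Cdkn1a and the other 4 sets low. Ccnb2 averaged 32.8 ± 24.3 CPM in index 705 and 339.8 ± 53.6 CPM in index 706 at pH 6.9. The means were 390.0 ± 47.8 and 417 ± 47.1 CPM in index 707 and 708 at pH 7.4, and 417 ± 127 and 188 ± 42.5 CPM in index 701 and 702 of fresh cells, with adjusted p of 0.000126 and 0.000113, and index 705 was the lowest of the 6 sets. Cd74 averaged 90.4 ± 23.4 CPM in index 705 and 1.46 ± 1.54 CPM in index 706 at pH 6.9. The means were 4.22 ± 3.95 and 3.22 ± 3.17 CPM in index 707 and 708 at pH 7.4, and 4.76 ± 4.78 and 83.7 ± 56.7 CPM in index 701 and 702 of fresh cells, with its highest means in index 705 and index 702 and adjusted p of 0.0211 and 0.0022. Wdfy1 averaged 8.87 ± 5.28 CPM in index 705 and 134 ± 19.3 CPM in index 706 at pH 6.9. The means were 152 ± 15.8 and 98 ± 17.1 CPM in index 707 and 708 at pH 7.4, and 12 ± 1.81 and 71.8 ± 3.86 CPM in index 701 and 702 of fresh cells, with adjusted p of 3.59e-06 and 0.032, and index 705 was again the lowest, next to index 701. With replicate 3 the difference from pH 7.4 was not called for Ccnb2 (adjusted p = 0.0942), nor that from fresh cells for Cdkn1a (0.0566) and Wdfy1 (0.102).

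**Figure D3:**
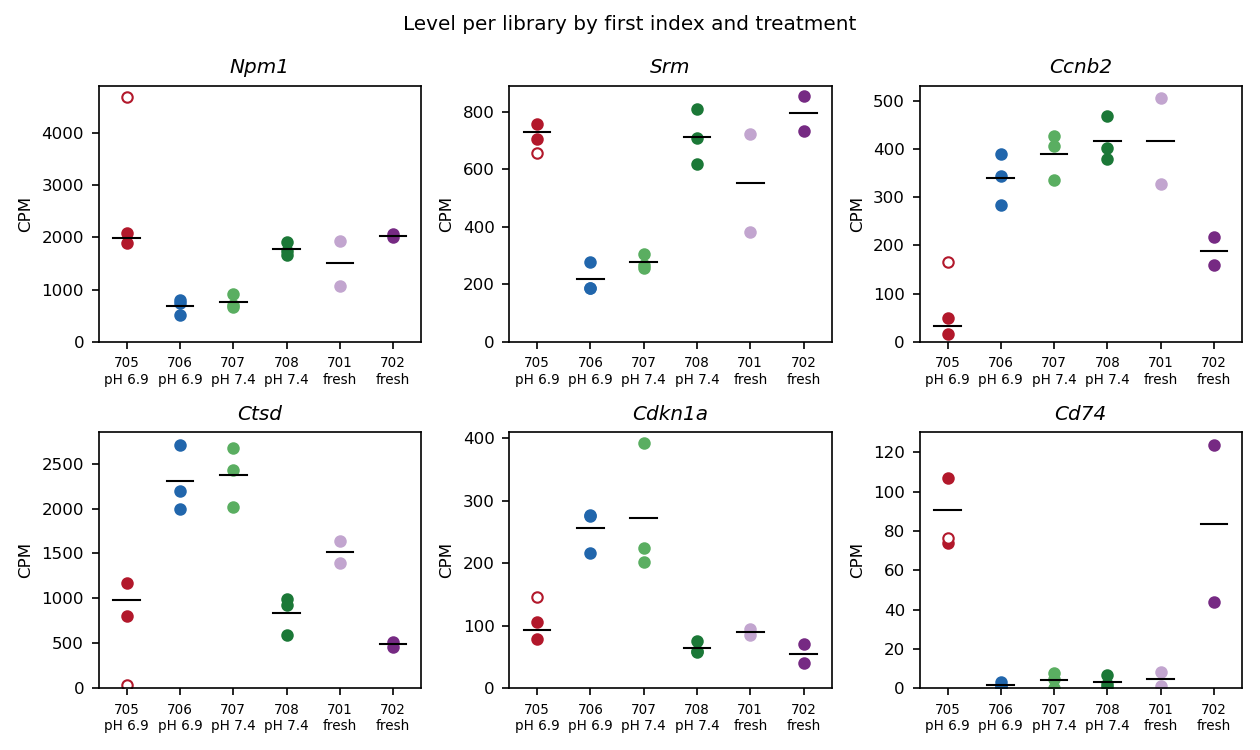
CPM of 6 genes in every library by index and treatment; points are libraries, the open point is pH 6.9 replicate 3, and bars are means of the libraries without it. Npm1 and Srm are high and Ctsd and Cdkn1a are low in index 705 against index 706, Ccnb2 is lowest in index 705 and Cd74 is high in index 705 and in index 702 of fresh cells.

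**Figure D4:**
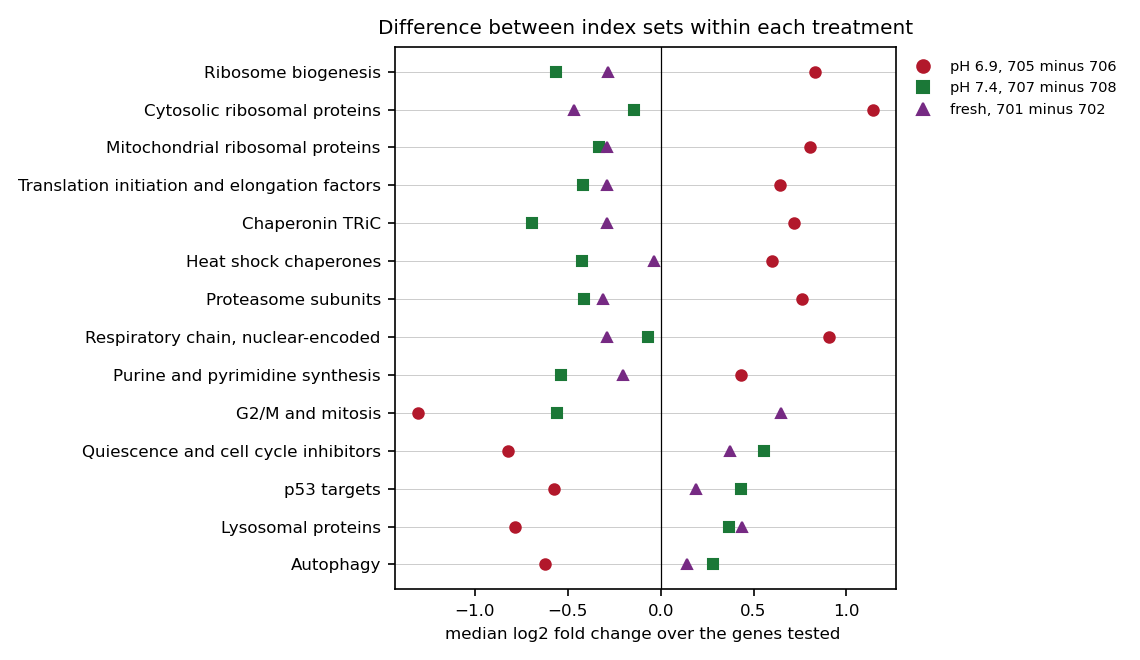
Median log2 fold change between the index sets within each treatment for 14 gene lists: index 705 minus 706 at pH 6.9 (circles), 707 minus 708 at pH 7.4 (squares) and 701 minus 702 in fresh cells (triangles). Circles lie on the opposite side of 0 from squares and triangles for every list shown except G2/M, where the circle and the square are both below 0.

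As whole profiles, the sets of pH 6.9 lay nearer to sets of other treatments than to each other. The Spearman rho of mean log2 CPM over 11226 genes was 0.922 between index 705 and index 706. Index 705 had 0.963 with index 702 and 0.952 with index 701 of fresh cells, and 0.938 with index 708 and 0.930 with index 707 at pH 7.4. Index 706 had 0.981 with index 707, 0.962 with index 701, 0.958 with index 708 and 0.939 with index 702. These values carry no test, since genes share libraries and depth, and index 705 enters as the mean of 2 libraries.

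**Figure D5:**
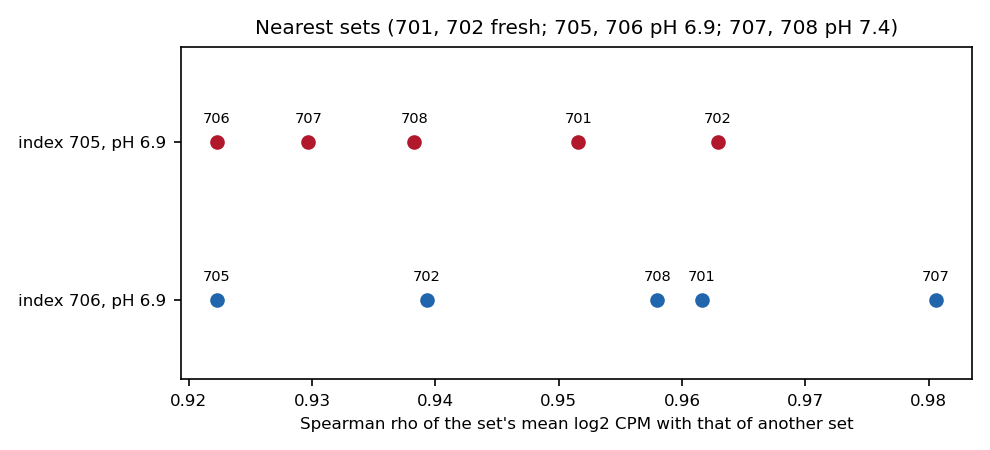
Spearman rho of the mean log2 CPM of index 705 (top, without replicate 3) and index 706 (bottom) with that of each other set over 11226 genes. Index 705 is nearest index 702 of fresh cells (0.963), index 706 is nearest index 707 at pH 7.4 (0.981), and the value between index 705 and index 706 (0.922) is the lowest in both rows.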

How the data were processed

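Per the labels' protocols, cDNA was amplified with SMART-Seq v4 and made into Nextera XT libraries, a preparation that does not mark strand. The authors deposited a gene table of estimated counts, made with kallisto on mm10 per the submitters' processing notes, with no version. The values are whole, and the sources used here do not say how transcripts were summed or rounded. Reads carry no molecular identifiers, so floors and intervals cover counting error only.

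From these counts, 15 of the 18 libraries (total of at least 100000 counts and at least 10000 genes detected) entered edgeR 4.0.16 (R 4.3.3): filterByExpr with 1 coefficient per treatment and index, TMM scaling, robust quasi-likelihood tests, Benjamini-Hochberg adjustment over all genes tested and a threshold of 0.05. A second fit added pH 6.9 replicate 3. CPM use TMM-scaled totals. The steps were tested on simulated data. Named genes were the 15 with the largest fold change per direction (at least 20 CPM, sets not overlapping over 6 libraries), up to 4 called members per list by p, a hand-written gene list, the 5 largest differences per direction from the other treatments, and the 10 with the widest range within a set. Coordinates are from GENCODE M21 (mm10) and promoters from RefSeq (GRCm38.p6). The libraries and gene lists were chosen with earlier results of these data known. Alternatives changed libraries, scaling, filter, tool (DESeq2 1.42.0, limma 3.58.1), threshold and covariates.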

Additional observations from a re-analysis of the deposited data

Results flagged for a closer look

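The gap between the index sets of pH 6.9 was tested against the gaps at pH 7.4 and in fresh cells with a term for the difference of effects. edgeR's quasi-likelihood test called 1934 genes against pH 7.4 and 1349 against fresh cells at an adjusted p under 0.05. With replicate 3 the counts were 934 and 251, and without fresh replicate 3 the count against fresh cells was 469.

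The 10 genes with the largest differences from pH 7.4 are given as log2 of the 705 to 706 effect minus the 707 to 708 effect. Mt2, which binds metals, differed by 13.64, the MHC class II chain H2-Aa by 10.68, the growth factor Bmp4 by 9.08, the SLAM family receptor Cd48 by 8.07 and Epcam by 7.23. In the other direction Npy differed by -14.04, Lpcat2 by -9.34, Tmem119 by -9.11, Itgb5 by -7.90 and Siglecf by -7.80. Most of these genes had sets at or near 0, so that the size of the value depends on the prior count and is no bound. Bmp4 was called with an adjusted p of 0.0305, but not with a replicate block (0.0865) or with replicate 3 (0.0515), and lost the call without pH 7.4 replicates 3, 4 or 5 or pH 6.9 replicates 1 or 6. Cd48 had an adjusted p of 0.0152, and 0.139 with the block, and lost its call without pH 6.9 replicate 5 (0.268).

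Against fresh cells the same quantity was 11.37 for H2-Aa, 10.03 for Cd74, 7.61 for Sprr2a1, 6.87 for the myeloid receptor Lilr4b and 6.32 for Mt2. It was -11.52 for the potassium channel subunit Kcne3, -11.48 for Tmem119, -8.77 for Itgb5, -8.37 for the proton channel Hvcn1 and -7.89 for Npy. Lilr4b had an adjusted p of 0.0431, and 0.102 with a replicate block, and lost its call without 7 of the 9 libraries compared. Npy and Mt2 lost their calls without fresh replicate 3, and Npy also without pH 6.9 replicate 5 (highest adjusted p 0.148). With pH 6.9 replicate 3 the difference from fresh cells was not called for Lilr4b (0.0754), Npy (0.200) and Mt2 (0.058).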

How the results depend on the processing

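The 1494 genes called between index 705 and index 706 became 116 with all 18 libraries, 1339 with the pH 6.9 libraries alone without replicate 3, 0 with all 6 of them alone (1418 at an unadjusted p under 0.05 by edgeR), 367 when tested against a 1.5-fold change, and 737 to 1326 when 1 of the 5 libraries was left out, fewest without replicate 1. RLE size factors gave 1522, no filter on low counts 1942, DESeq2 2028, limma-voom 1821 and the second index as a term 1424. The 1934 genes that differed from pH 7.4 became 934 with replicate 3, 159 with all 18 libraries and 1073 against a 1.5-fold change (1368 to 2016 without single libraries), and the 1349 that differed from fresh cells became 251, 644 and 592 (469 to 1282). Of the 12 pairs of libraries with the same replicate number, 3 had deviations correlated above 0.1 (range -0.083 to 0.138), and 3 of 15 libraries correlated best with one of their own number, and the labels do not tie a number to a mouse, so the block is an alternative only. The replicate block gave 1614 and 938 genes for the differences from pH 7.4 and from fresh cells; for index 705 against 706 no paired analysis was possible because the sets share no replicate number. Of 198 genes followed, 160 were called, and 81 of these kept their call without each pH 6.9 library in turn. Signs turned for 3 genes. Jak1 moved to a log2 fold change of 0.0068 with replicate 3, 0.028 with all 18 libraries and 0.054 with the 6 pH 6.9 libraries alone, and Tax1bp1 to 0.70, 0.72 and 0.74 in the same settings, where replicate 3 was the highest library for both. Flt3 ranged over -8.63 to 0.96 when single pH 6.9 libraries were left out, the lower value without replicate 5, where the remaining index 705 library was at 0. The causes of the other changes were not tested. With 2 or 3 libraries a set and 1640817 to 7508120 counts per pH 6.9 library, differences among genes below about 20 CPM rest on few counts.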
